A study of Sus scrofa with 35 samples.

Results

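LEUTX, a homeobox gene, was overexpressed in porcine expanded potential stem cells (pEPSCs), and the cells were compared with wild-type pEPSCs. The comparison rests on 6 bulk RNA libraries of the 35 samples in the series, 3 labelled LEUTX overexpression and 3 labelled wild type, chosen by those labels. Genes were kept when at least 3 of the 6 libraries reached 1 TPM (a level of transcript abundance scaled for gene length and library size), which left 12570 of the 12587 genes in the deposited table. The cells are labelled as embryonic EPSCs from pig. No label gives a strain, sex, passage, promoter, vector, tag, induction time or clone for the LEUTX line, or says whether the 3 libraries of a group came from separate cultures, so p-values measure only the spread between these libraries. The series also holds pEPSC libraries labelled OTX2 knockout (3) and OTX2 overexpression (3), which are set beside the LEUTX libraries at the end. The wild-type libraries carry no named modification, and no treatment is named for any of the 4 groups.

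LEUTX is a PRD-like homeobox transcription factor. In human embryos it is expressed for a short time around the activation of the embryonic genome, and it belongs to a family that arose by duplication from the CRX and OTX branch of homeobox genes and binds related DNA motifs. OTX2 is the member of that branch used by the pluripotent epiblast, where it helps cells leave the naive state, and later by the forebrain and anterior endoderm. EPSCs are stem cell lines kept in medium with inhibitors of several signalling pathways. They express the pluripotency network and have been described as able to contribute to both embryonic and extraembryonic lineages.

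LEUTX was listed at 0 TPM in wild-type libraries 1, 2 and 3 and stood at 3171, 3187 and 3073 TPM in the 3 LEUTX libraries (adjusted p = 1.56e-14). The table gives a single value per gene, so a transgene copy and the endogenous gene on chromosome 6 at 48240324 to 48248568 of Sscrofa11.1 cannot be told apart. OTX2, on chromosome 1 at 186028575 to 186039026, was at 258, 252 and 260.4 TPM in wild type and at 0.131, 0.294 and 0.209 TPM with LEUTX. The groups did not overlap, and the difference was the largest fall in the table (log2 difference −7.74, SE 0.074, adjusted p = 1.48e-11). Differences here are means of log2(TPM + 1), LEUTX minus wild type, tested with limma and adjusted over all 12570 genes by the Benjamini-Hochberg method, and a gene was called at an adjusted p under 0.05. Levels written with ± are means and SDs of the 3 libraries of a group, wild type first, and bare pairs of levels are the 2 means. The added 1 shrinks the difference of genes at a few TPM.

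With that test 8761 genes (69.7%) were called, 5233 higher (41.6%) and 3528 lower (28.1%) with LEUTX. A change of at least 2-fold was also met by 1697 genes (13.5%), 1232 higher (9.80%) and 465 lower (3.70%). The groups of 3 did not overlap for 9235 genes (73.5%). Because so many genes were called, the share of a gene list that was called says little, and direction and size are given instead. A member that reached 1 TPM in a single group had to differ, and it leaves the test when a library of that group is left out, so such members are counted where they move a list. Adjusted p-values of such genes, among them LEUTX, OTX2, CYP26A1, CER1, EOMES, FOXA2 and GDF3, are no support beyond the levels themselves. The median gene stood 0.11 higher with LEUTX on the log2 scale, and median-ratio scaling moved it by −0.10 and gave 4467 higher and 4495 lower calls, so differences near 0.1 are within that shift. Over all genes, replicate libraries of a group correlated at r = 0.994 to 0.997 and libraries of different groups at 0.927 to 0.932.

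**Figure D1:**
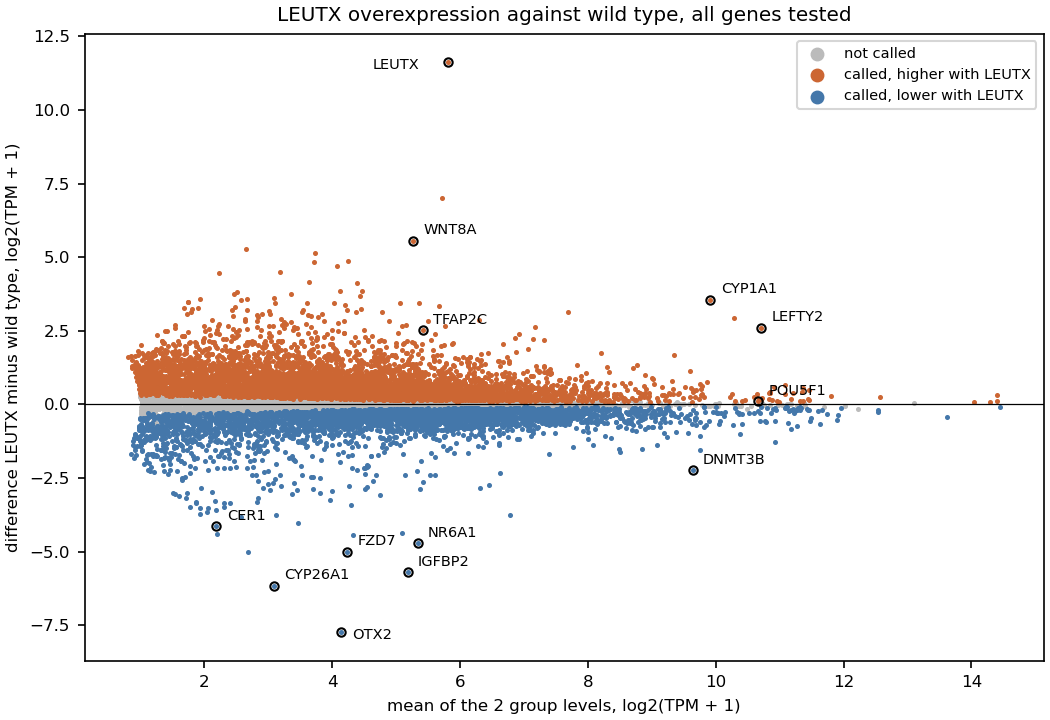
Difference between LEUTX overexpression and wild type (vertical axis, log2(TPM + 1)) against the mean of the 2 group levels (horizontal axis, log2(TPM + 1)) for the 12570 genes tested, with called genes coloured by direction. LEUTX stands alone at the top and OTX2 at the bottom, and POU5F1 lies near the zero line at a high level.

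The cells of both groups carried pluripotency markers. Of 9 such markers 8 were in the table, and their summed level was 4166 to 4433 TPM in wild type and 3320.2 to 3389 TPM with LEUTX. This sum fell mostly through LIN28A, while TDGF1 and CDH1 in it rose. None of 7 trophoblast markers (CDX2, GATA3 and others) and none of 4 germ cell markers (DDX4, DAZL and others) was in the table. A gene is in the table only where its mean reached 1.00 TPM. Summed levels of markers of other cell types were lower with LEUTX, though not every member fell. PDGFRB in the fibroblast sum and TBX6 in the streak sum rose. The fibroblast, endoderm and streak sums fell mostly through ACTA2, FOXA2 and EOMES, all given below. Fibroblast markers (4 of 8 in the table) summed to 15.5 to 16.4 TPM in wild type and 6.34 to 6.73 TPM with LEUTX. Endoderm markers (2 of 7) summed to 64.6 to 69.6 and 36.9 to 42.1 TPM, and streak mesoderm markers (3 of 6) to 17.7 to 21.8 and 7.60 to 7.96 TPM. Of 4 neural markers 1 was in the table. In bulk RNA, fewer cells of a type and less RNA per cell cannot be told apart, and the part of such cells in the results was not tested. Mitochondrial transcripts took 15.7%, 15.4% and 14.5% of TPM in wild type and 15.96%, 15.9% and 16.1% with LEUTX, a difference of 0.749 percentage points (exact two-sided permutation test, p = 0.1, the smallest that 3 against 3 allows), and of 0.393 points without wild-type library 3.

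WNT8A, a WNT ligand of the early primitive streak on chromosome 2 at 140103322 to 140113682, stood at 4.34, 3.86 and 5.63 TPM in wild type and at 270.4, 274 and 243 TPM with LEUTX, a 57.0-fold difference of means (log2 difference 5.56, SE 0.11, adjusted p = 1.27e-09). Every LEUTX library lay far above every wild-type library. Among called genes that carry a gene symbol (no LOC number), with groups that did not overlap and a higher group of at least 5 TPM, the 14 largest rises began with LEUTX and WNT8A and included genes of ion transport and secretion. FXYD4, a regulator of the sodium pump, was listed at 0 in wild type and at 34.9, 40.9 and 38.9 TPM with LEUTX, and its relative FXYD3 rose from 1.53 ± 0.902 to 67.7 ± 3.39 TPM. RESP18, a secretory granule protein, rose from 1.23 ± 0.240 to 78.3 ± 3.21 TPM, GABRA3, a GABA receptor subunit, from 2.33 ± 0.464 to 84.4 ± 3.48 TPM, and SLCO4A1, an organic anion transporter, from 1.78 ± 0.0946 to 36.4 ± 4.49 TPM. UGT1A6, a glucuronosyltransferase, rose from 2.50 ± 0.300 to 102 ± 5.02 TPM, and because genes of the UGT1A locus share exons its reads may belong to a neighbouring member. LGALS9, a galectin, rose from 0.915 ± 0.281 to 41.9 ± 2.96 TPM, PPP2R2B, a regulatory subunit of protein phosphatase 2A, from 1.93 ± 0.223 to 51.4 ± 2.38 TPM, NUPR1, a stress-responsive chromatin protein, from 4.09 ± 1.55 to 84.6 ± 2.55 TPM, and CALB2, the calcium-binding protein calretinin, from 3.61 ± 0.593 to 65.3 ± 2.18 TPM. TBC1D30, a GTPase-activating protein for Rab proteins, rose from 4.87 ± 0.474 to 82.9 ± 2.47 TPM. The rule that chose the 14 required groups without overlap, so their separation is no added result.

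By the same rule, the 14 largest falls began with OTX2 and CYP26A1, the enzyme that breaks down retinoic acid, on chromosome 14 at 104561394 to 104567099. CYP26A1 stood at 68.4, 70.2 and 73.7 TPM in wild type and at 0.0240, 0 and 0 TPM with LEUTX, so that it was listed at 0 in LEUTX libraries 2 and 3 (adjusted p = 9.74e-11). IGFBP2, which binds insulin-like growth factors and lies on chromosome 15 at 118822092 to 118850985, stood at 259, 259 and 261 TPM in wild type and at 4.36, 3.79 and 3.98 TPM with LEUTX (log2 difference −5.69, SE 0.059, adjusted p = 2.35e-11). FZD7, a WNT receptor of pluripotent cells on chromosome 15 at 105644164 to 105648860, was at 105, 96.8 and 113 TPM and then at 2.13, 2.51 and 2.32 TPM (log2 difference −4.99, SE 0.082, adjusted p = 5.47e-10). The LEUTX libraries lay below wild type by 64.3-fold for IGFBP2 and 45.2-fold for FZD7. SOX21, a SOXB2 transcription factor, fell from 35.1 ± 1.63 to 0.133 ± 0.0458 TPM, and NR6A1, the orphan nuclear receptor GCNF, from 205 ± 6.57 to 6.89 ± 0.207 TPM. NNAT, the imprinted gene neuronatin, fell from 91.8 ± 5.78 to 3.31 ± 0.575 TPM, and AES, a short Groucho-family corepressor now also named TLE5, from 43.1 ± 2.01 to 1.74 ± 0.409 TPM. CAV1 (caveolin), ANXA2 (an annexin of the plasma membrane) and EFEMP1 (a secreted matrix protein) fell from 152 ± 6.03 to 6.52 ± 0.322 TPM, from 402 ± 14.9 to 29.0 ± 1.05 TPM and from 21.3 ± 1.04 to 0.580 ± 0.297 TPM. The endoderm factor FOXA2, the secreted antagonist CER1 and the TEAD target CTGF complete the 14 and are described with their pathways.

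**Figure D2:**
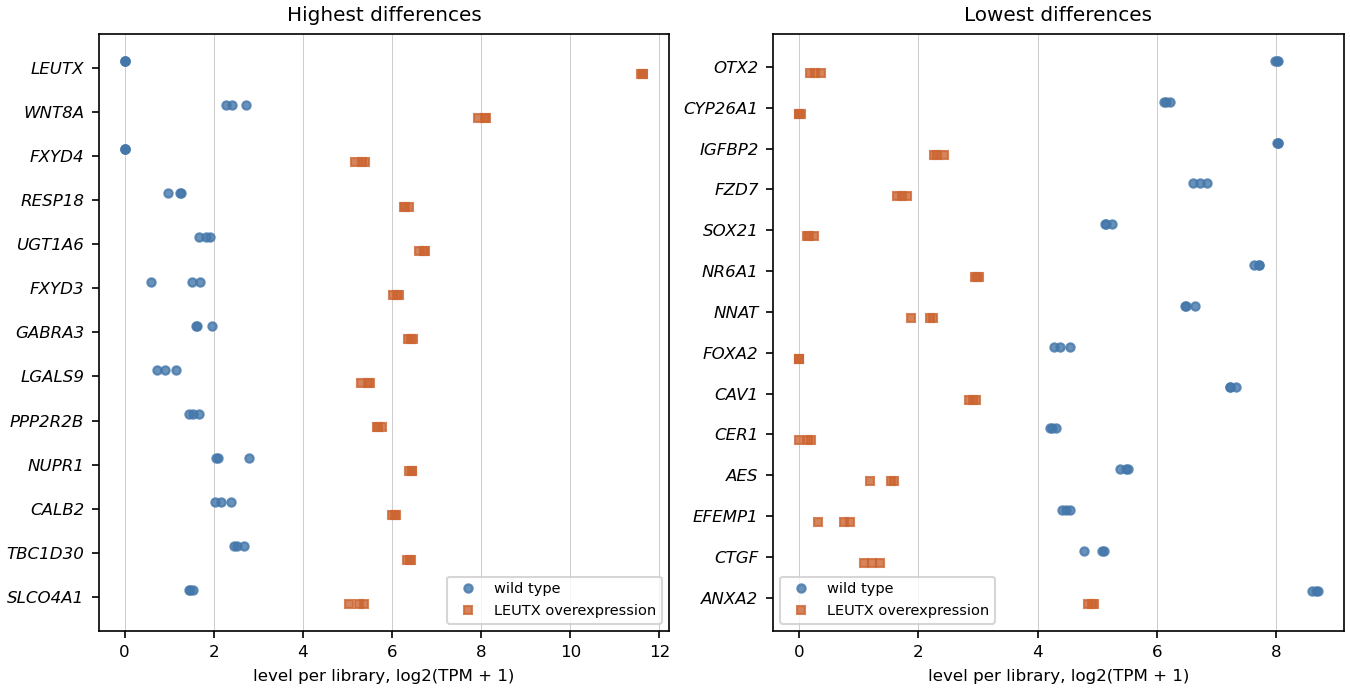
Level in each library (log2(TPM + 1)) of 13 of the 14 genes with the highest and the 14 with the lowest differences among called genes with a symbol whose groups do not overlap and whose higher group averages at least 5 TPM, with circles for the 3 wild-type and squares for the 3 LEUTX libraries. The rule required the groups to be separated in every row, and the gap is widest for LEUTX and OTX2.

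The central pluripotency factors stayed expressed, and most core pluripotency genes were lower. Of 13 tested members of a core list (of 16), 9 fell, 2 rose and 2 were not called, with a median difference of −0.66 against 0.11 over all genes. Of these members 2 passed the filter only through wild type, and the median was −0.43 without wild-type library 3. POU5F1 stood at 1524, 1561 and 1587 TPM in wild type and at 1646, 1686 and 1697 TPM with LEUTX. Its groups did not overlap, but the difference of 0.11 (adjusted p = 0.00655) equalled the shift of the median gene and was −0.0036 (adjusted p = 0.953) under median-ratio scaling. SOX2 was at 333, 329 and 389 TPM and then at 265, 275 and 250.3 TPM (log2 difference −0.41, SE 0.065, adjusted p = 0.000406). NANOG, whose symbol has 2 loci in the RefSeq annotation, was at 205, 209 and 189.6 TPM and then at 148, 159.5 and 152 TPM (log2 difference −0.39, SE 0.047, adjusted p = 7.1e-05). Both fell by about as much as each other, with every LEUTX library below every wild-type library.

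LIN28A, which blocks maturation of let-7 microRNAs, had the largest change in TPM of the core list. It stood at 1406, 1489 and 1551 TPM in wild type and 501, 511 and 494 TPM with LEUTX (log2 difference −1.56, SE 0.038, adjusted p = 5.17e-09), and its paralog LIN28B fell from 63.0 ± 1.78 to 39.6 ± 0.695 TPM. The zinc-finger factor SALL4 fell from 104 ± 9.92 to 46.7 ± 1.40 TPM, the zinc-finger factor ZNF462 from 35.0 ± 6.67 to 20.6 ± 0.945 TPM and the surface sialomucin PODXL from 154 ± 34.8 to 61.2 ± 4.33 TPM. FOXD3, a forkhead repressor of differentiation, fell from 7.90 ± 0.886 to 0.0247 ± 0.0428 TPM and was listed at 0 in 2 of the LEUTX libraries. GDF3, a NODAL-related ligand, stood at 3.45, 4.07 and 3.59 TPM in wild type and was listed at 0 in all 3 LEUTX libraries (adjusted p = 2.76e-07). The other riser was TDGF1, the NODAL co-receptor also called Cripto, described below. UTF1 (13.8 ± 3.17 and 14.5 ± 2.53 TPM) and ZFP42 (216 ± 4.99 and 207 ± 2.86 TPM), markers of undifferentiated cells, were not called, although under median-ratio scaling ZFP42 was called lower (log2 difference −0.17, adjusted p = 0.00899).

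Genes named for the naive state moved in both directions. Of 12 tested members of 20, 7 rose and 5 fell, with a median of 0.49. That median rests on 2 members that passed the filter only through the LEUTX libraries: without any single LEUTX library 4 rose and 5 fell of 10 tested, with a median of −0.27 to −0.23, and without a wild-type library the median was 0.39 to 0.95. STAT3, which acts downstream of LIF, rose from 20.1 ± 1.87 to 65.6 ± 2.12 TPM, its feedback inhibitor SOCS3 from 3.05 ± 0.508 to 7.26 ± 0.510 TPM and the LIF co-receptor IL6ST from 26.9 ± 0.582 to 32.9 ± 0.634 TPM. SOX15, a SOX factor shared with germ cells, rose from 23.2 ± 1.40 to 59.4 ± 2.17 TPM. The germline factors DPPA3 and DPPA5 were at 0.455, 0.631 and 0.100 and at 0.189, 0.469 and 0 TPM in wild type, and at 1.80, 3.40 and 1.96 and at 4.90, 4.18 and 3.79 TPM with LEUTX, so both rose from near 0 to a few TPM. The Krüppel-like factors went the other way, with KLF5 falling from 16.3 ± 2.67 to 2.63 ± 0.371 TPM and KLF4 from 4.43 ± 0.374 to 0.862 ± 0.332 TPM, and so did the orphan receptor ESRRB from 4.06 ± 0.490 to 1.87 ± 0.297 TPM and FGF4, a ligand of pluripotent cells, from 2.23 ± 0.658 to 0.100 ± 0.0870 TPM. PRDM14, a repressor in naive and germ cells, was at 88.7, 53.2 and 116 TPM in wild type and 138, 136 and 128 TPM with LEUTX (log2 difference 0.70, SE 0.26, adjusted p = 0.0492). Its wild-type libraries spread widely, and its call was lost without any single LEUTX library (adjusted p = 0.0728 to 0.128) and under median-ratio scaling (0.0515).

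Among formative and primed genes more fell than rose. Of 19 tested members of 21, 12 fell, 6 rose and 1 was not called, with a median of −0.81, and OTX2 itself is in the list. Of these 2 passed the filter only through wild type, and without any single wild-type library 17 were tested and the median was −0.45 to −0.31. The zinc-finger factors ZIC2 and ZIC5 of the epiblast increased from 145 ± 13.6 to 228 ± 12.1 TPM and from 59.5 ± 3.53 to 100.8 ± 2.74 TPM. The neural cadherin CDH2 fell from 47.1 ± 1.84 to 4.12 ± 0.314 TPM, the WNT antagonist SFRP1 from 111 ± 2.19 to 20.3 ± 2.11 TPM and the POU factor POU3F1 from 12.6 ± 0.969 to 4.53 ± 0.477 TPM. SOX11 fell from 158 ± 9.78 to 134 ± 6.997 TPM and the phosphatase DUSP6 from 79.1 ± 1.40 to 42.7 ± 1.87 TPM. The ETS factors of this list rose, as given with the FGF genes.

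DNA methylation genes split. Of 14 tested members of 15, 4 rose, 4 fell and 6 were not called, with a median of 0.067 that turned to −0.039 under median-ratio scaling (3 higher, 6 lower). DNMT3B, the methyltransferase for new marks, lies on chromosome 17 at 36345715 to 36386076. It was at 1609.9, 1771 and 1807 TPM in wild type and at 384, 379 and 334 TPM with LEUTX, a 4.73-fold difference (log2 difference −2.24, SE 0.060, adjusted p = 7.7e-09). The other new-mark enzyme DNMT3A was not called (36.0 ± 1.42 and 39.8 ± 2.87 TPM). The maintenance enzyme DNMT1 fell from 143 ± 5.35 to 111 ± 2.90 TPM, whereas UHRF1, which recruits it to replicating DNA, rose from 107 ± 8.39 to 233 ± 3.40 TPM. Of the TET oxidases, which start the removal of methyl groups, TET3 fell from 11.07 ± 2.57 to 3.99 ± 0.517 TPM, TET1 was not called (40.4 ± 1.84 and 41.2 ± 1.80 TPM) and TET2 rose from 4.40 ± 0.514 to 5.73 ± 0.384 TPM, a call lost in 5 of 11 other settings. ZFP57, a zinc-finger protein that protects imprinted methylation, was at 5.02, 6.54 and 6.49 TPM in wild type and 60.4, 62.4 and 57.8 TPM with LEUTX (log2 difference 3.13, SE 0.096, adjusted p = 1.74e-08). The deaminase APOBEC3B rose from 1.40 ± 0.444 to 2.73 ± 0.0614 TPM, and the methyl-CpG reader ZBTB38 fell from 3.41 ± 0.413 to 2.03 ± 0.237 TPM. The readers MBD2 (2.30 and 2.54 TPM) and MBD3 (84.98 and 82.8 TPM) and the glycosylase TDG (63.3 and 61.7 TPM) were not called. TDG was called lower under median-ratio scaling (log2 difference −0.14, adjusted p = 0.0189), and DNMT3A higher without LEUTX library 3 (0.19, adjusted p = 0.0418).

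NODAL signals through activin receptors and SMAD2 and SMAD3 with the DNA-binding partner FOXH1, and induces its own antagonists of the LEFTY family. It maintains the pluripotent epiblast and patterns the mesendoderm. Of 23 tested members of a 24-gene list, 11 rose, 8 fell and 4 were not called, with a median of 0.15, close to the 0.11 over all genes. Of these 2 passed the filter only through wild type, and without any single wild-type library 21 were tested and the median was 0.47 to 0.51. NODAL itself, on chromosome 14 at 73350358 to 73357064, stood at 24.8, 22.6 and 22.9 TPM in wild type and at 73.4, 73.1 and 71.3 TPM with LEUTX (log2 difference 1.59, SE 0.055, adjusted p = 3.15e-08). Its groups did not overlap. GDF1, a ligand that pairs with NODAL, rose from 6.602 ± 0.792 to 19.3 ± 2.53 TPM, and the entry named INHBA, the symbol of the activin A subunit, from 7.80 ± 1.07 to 24.99 ± 1.82 TPM. The INHBA symbol is placed on chromosome 12 at 53115379 to 53117128 and is not annotated as protein-coding, so its identity is uncertain. Of the 4 ligand entries only GDF3 was lower. Of the convertases that process these ligands, FURIN rose from 76.1 ± 8.74 to 147 ± 4.41 TPM and PCSK6 fell from 5.33 ± 0.670 to 3.32 ± 0.466 TPM.

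On the receiving side TDGF1 was at 30.8, 36.5 and 35.3 TPM in wild type and 105, 102 and 104 TPM with LEUTX (log2 difference 1.58, SE 0.065, adjusted p = 8.3e-08), and these libraries did not overlap. The type I receptors ACVR1B and TGFBR1 increased from 9.66 ± 0.850 to 15.5 ± 1.67 TPM and from 111 ± 3.62 to 155 ± 2.91 TPM. The type II receptors ACVR2A (8.47 ± 1.10 and 7.44 ± 0.782 TPM) and ACVR2B (95.1 ± 22.8 and 81.7 ± 1.74 TPM) were not called, although ACVR2B was called lower without wild-type library 1 (log2 difference −0.38, adjusted p = 0.00228). SMAD3 fell from 5.31 ± 0.267 to 2.104 ± 0.239 TPM, SMAD4, the partner of all receptor SMADs, from 34.8 ± 0.854 to 27.8 ± 0.714 TPM and FOXH1 from 38.8 ± 2.77 to 26.6 ± 3.14 TPM, while SMAD2 was not called (13.6 ± 0.515 and 13.3 ± 0.431 TPM).

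The antagonists and targets diverged most. LEFTY2, on chromosome 10 at 13849052 to 13853438, was at 690.2, 619.7 and 713 TPM in wild type and at 4064, 4195 and 4107 TPM with LEUTX, a 6.11-fold difference (log2 difference 2.61, SE 0.048, adjusted p = 8.84e-10). All LEUTX libraries exceeded all wild-type libraries by several fold. Pig LEFTY genes are near copies, and reads may be split or shared between them. CER1, a secreted NODAL, BMP and WNT antagonist, went the opposite way, from 17.4, 18.8 and 18.0 TPM to 0, 0.103 and 0.143 TPM (log2 difference −4.14, SE 0.10, adjusted p = 5.15e-09), with LEUTX library 1 listed at 0. FST (follistatin), which traps activin, fell from 219.5 ± 5.18 to 43.1 ± 0.319 TPM. BAMBI, a pseudoreceptor, rose from 16.1 ± 2.02 to 53.6 ± 5.27 TPM and PMEPA1, a membrane inhibitor of SMAD signalling, from 18.2 ± 1.54 to 29.1 ± 0.673 TPM. The SMAD corepressor SKIL fell from 44.3 ± 0.369 to 38.1 ± 0.844 TPM. SMAD7, the inhibitory SMAD, stood at 32.9 ± 2.29 and 36.6 ± 0.785 TPM and was not called, but was called higher after rescaling to nuclear genes (adjusted p = 0.0423) and without wild-type library 3 (0.0428).

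WNT ligands are made lipid-bearing by PORCN, bind Frizzled (FZD) receptors with LRP5 or LRP6, and are boosted by R-spondins through LGR4. Secreted SFRP proteins capture the ligands. Of 25 tested members of 49, 10 rose, 11 fell and 4 were not called, with a median of −0.13. Of these, WNT5A passed the filter only through LEUTX and FRZB only through wild type. Without any single LEUTX library 8 rose and 10 or 11 fell of 24 tested, with a median of −0.14 to −0.12. Most ligands rose, and most receptors and antagonists that were called fell. Of 6 WNT ligands tested, 5 rose, namely WNT8A, WNT3 from 4.31 ± 0.340 to 27.4 ± 1.71 TPM, WNT5A from 0.590 ± 0.164 to 8.99 ± 0.583 TPM, WNT5B from 0.928 ± 0.104 to 3.11 ± 0.431 TPM and WNT9A from 0.705 ± 0.278 to 2.69 ± 0.396 TPM. WNT3A was not called (1.37 ± 0.151 and 1.41 ± 0.271 TPM). RSPO1 stood at 8.74, 8.55 and 10.1 TPM in wild type and at 41.0, 41.1 and 36.9 TPM with LEUTX (log2 difference 2.01, SE 0.083, adjusted p = 9.03e-08), with no overlap. PORCN fell from 23.7 ± 1.56 to 16.3 ± 1.03 TPM.

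Of the 9 Frizzled receptors tested, 5 fell and 2 rose. FZD5, the most abundant in wild type, was at 214, 194 and 226 TPM there and at 30.1, 28.5 and 28.0 TPM with LEUTX (log2 difference −2.83, SE 0.061, adjusted p = 2.74e-09). With FZD7, given above, the highest-expressed pair thus lost most of its transcript in every LEUTX library. FZD8 fell from 16.5 ± 1.17 to 3.34 ± 0.133 TPM, FZD2 from 62.6 ± 4.22 to 41.0 ± 2.61 TPM and FZD4 from 12.3 ± 0.228 to 9.59 ± 0.854 TPM. FZD10 and FZD6 increased from 5.45 ± 0.483 to 11.2 ± 0.283 TPM and from 9.81 ± 0.307 to 18.6 ± 0.732 TPM. FZD1 (2.64 and 2.31 TPM), FZD3 (11.9 and 10.8 TPM) and the co-receptor LRP6 (31.0 and 29.5 TPM) were not called, and FZD3 and LRP6 were called lower under median-ratio scaling (adjusted p = 0.0142 and 0.0187). LRP5 fell from 12.2 ± 1.59 to 9.47 ± 0.554 TPM, a call lost without wild-type library 1 (adjusted p = 0.0793) or LEUTX library 2 (0.0716). LGR4 fell from 54.6 ± 0.490 to 26.5 ± 0.856 TPM. Of the antagonists, SFRP1 stood at 110.3, 109.8 and 114 TPM in wild type and 20.5, 22.3 and 18.1 TPM with LEUTX (log2 difference −2.40, SE 0.072, adjusted p = 1.55e-08), SFRP5 fell from 7.91 ± 0.901 to 0.928 ± 0.356 TPM and FRZB from 2.00 ± 0.454 to 0.305 ± 0.0816 TPM. DKK3 rose from 9.78 ± 0.944 to 15.8 ± 0.829 TPM and SFRP2 from 30.5 ± 4.93 to 37.7 ± 0.329 TPM, and the SFRP2 call was lost without any single LEUTX library (adjusted p = 0.0566 to 0.0650) and under median-ratio scaling (0.0544).

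Of the transcripts known as WNT targets, more rose than fell. Of 13 tested members of 20, 9 rose, 2 fell and 2 were not called, with a median of 0.34. The number that rose was 5 without wild-type library 2 or LEUTX library 3 and 6 under median-ratio scaling, and 2 fell in each of these. AXIN2, the feedback inhibitor used most often as a readout, was at 12.6, 10.7 and 14.6 TPM in wild type and 34.6, 39.9 and 32.8 TPM with LEUTX (log2 difference 1.43, SE 0.11, adjusted p = 4.62e-06). CCND1 (cyclin D1) was at 39.4, 37.3 and 41.4 TPM and then at 115, 122 and 111 TPM (log2 difference 1.54, SE 0.056, adjusted p = 4.21e-08). Neither gene had overlapping groups. CDX4, a homeobox gene of the posterior body, rose from 2.18 ± 0.221 to 19.3 ± 0.588 TPM, TCF7, a nuclear effector of the pathway, from 8.69 ± 1.85 to 28.6 ± 1.64 TPM and MYC from 72.5 ± 9.12 to 92.3 ± 2.27 TPM. SP8 and TNFRSF19 fell from 9.95 ± 1.40 to 3.28 ± 0.418 TPM and from 9.32 ± 0.543 to 5.63 ± 0.312 TPM. The feedback genes NKD1 (2.698 and 2.47 TPM) and NKD2 (10.9 and 10.3 TPM) were not called.

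**Figure D3:**
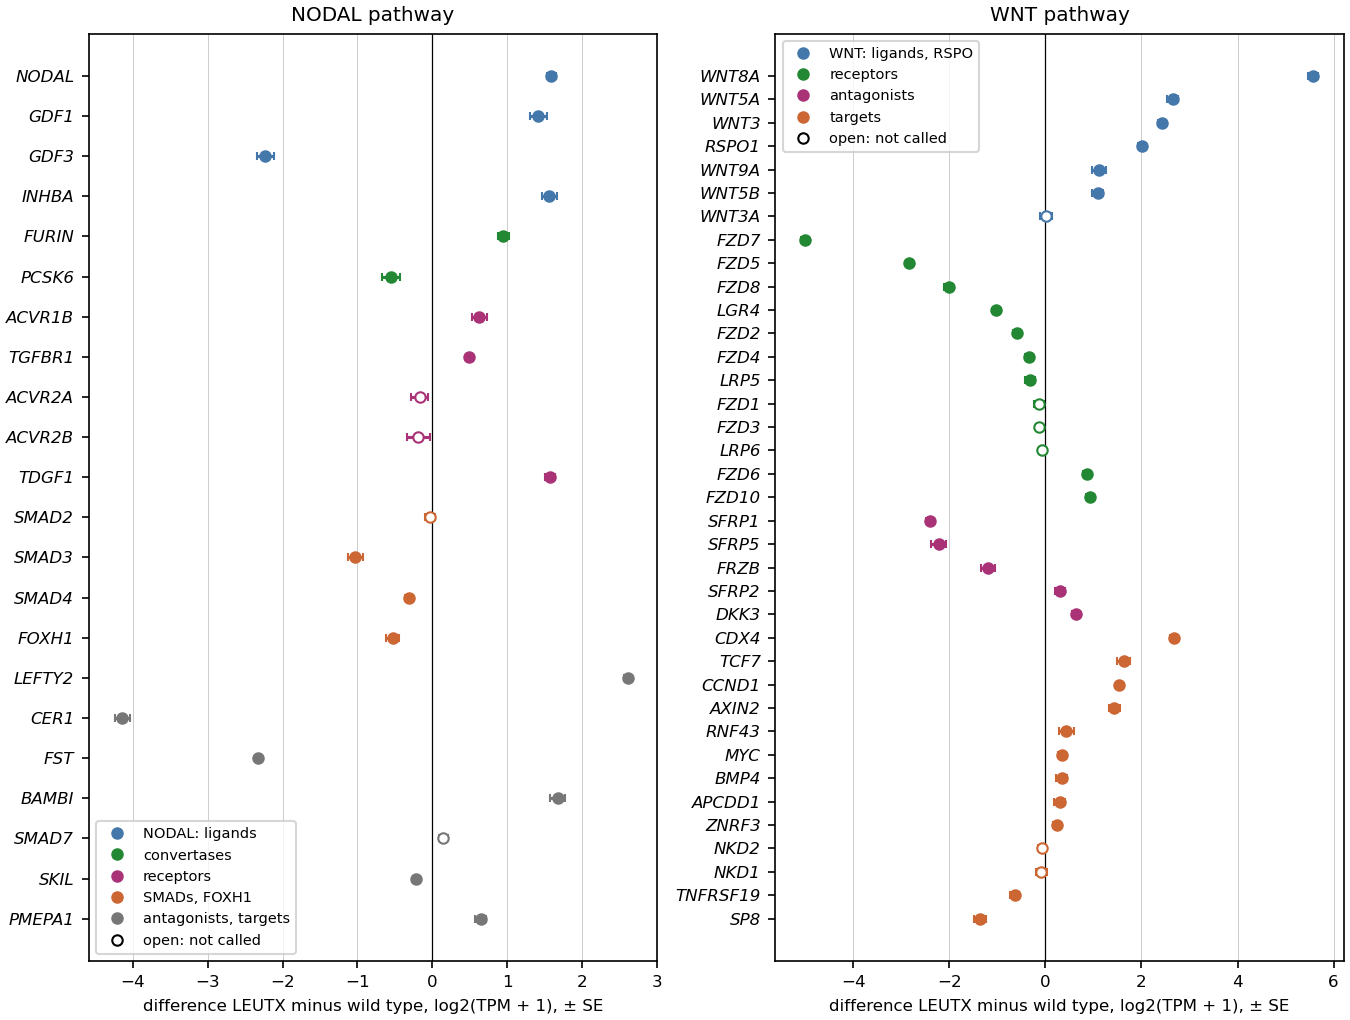
Difference between LEUTX overexpression and wild type (horizontal axis, log2(TPM + 1), points with SE) for 22 NODAL genes (left) and for WNT ligands, receptors, antagonists and targets (right), coloured by role, filled where called and open where not. On the left LEFTY2 lies far right and CER1, FST and GDF3 far left, and on the right the ligands lie to the right of FZD7, FZD5 and FZD8.

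Lineage genes linked to these pathways did not move as a block. Of 8 tested primitive streak and mesendoderm genes (of 22), 4 rose and 4 fell, with a median of −0.017. Of these 2 passed the filter only through wild type, and without any single wild-type library 4 rose and 2 fell of 6 tested, with a median of 0.33 to 0.58. EOMES, a T-box factor of mesendoderm, was at 13.1, 13.0 and 14.3 TPM in wild type and 0.281, 0.169 and 0.0320 TPM with LEUTX (log2 difference −3.65, SE 0.11, adjusted p = 1.87e-08). FOXA2, the pioneer factor of endoderm, was at 22.4, 18.3 and 19.8 TPM and was listed at 0 in all 3 LEUTX libraries (adjusted p = 4.6e-09). The organizer gene GSC fell from 22.5 ± 1.40 to 13.4 ± 2.57 TPM and MIXL1 from 1.89 ± 0.504 to 1.05 ± 0.111 TPM. TBX6, FOXF1 and SNAI1, genes of paraxial mesoderm, lateral mesoderm and epithelial-mesenchymal transition, rose from 3.80 ± 1.04 to 6.596 ± 0.0975 TPM, from 1.46 ± 0.402 to 2.40 ± 0.146 TPM and from 6.57 ± 1.44 to 9.21 ± 0.936 TPM. FGF8, a ligand of the streak, was at 4.84, 4.40 and 4.32 TPM in wild type and at 23.6, 21.7 and 21.7 TPM with LEUTX (log2 difference 2.08, SE 0.080, adjusted p = 6.08e-08). The MIXL1 call was lost without LEUTX library 3 (adjusted p = 0.0543), and that of SNAI1 without LEUTX library 1 (0.0512) or 3 (0.0810).

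Of 9 tested endoderm and hypoblast genes (of 23), 7 fell, 1 rose and 1 was not called, with a median of −0.38. Besides FOXA2, the claudin CLDN10 fell from 43.5 ± 3.31 to 12.4 ± 0.891 TPM, the collagen COL4A1 from 41.2 ± 6.90 to 8.28 ± 0.529 TPM and the laminin chain LAMA1 from 16.0 ± 0.931 to 8.61 ± 0.675 TPM. FOXA3 fell from 12.8 ± 0.450 to 9.58 ± 0.790 TPM and the apolipoprotein APOA1 from 47.3 ± 1.08 to 40.0 ± 2.71 TPM. HHEX, a homeobox factor of anterior endoderm, rose from 0.809 ± 0.272 to 3.44 ± 0.866 TPM, and the receptor CXCR4 was not called (20.5 ± 2.05 and 21.0 ± 1.45 TPM).

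Of 11 tested forebrain and neuroectoderm genes (of 29), 6 fell, 4 rose and 1 was not called, with a median of −0.83. The median turned with the libraries left out, since 3 members passed the filter only through wild type and 2 only through LEUTX. It was 0.70 to 0.88 without any single wild-type library (4 rose and 3 fell of 8) and −1.81 without any single LEUTX library (2 rose and 6 fell of 9). HESX1, a repressor of the anterior neural plate, was at 62.0, 65.9 and 60.0 TPM in wild type and 5.28, 4.35 and 5.52 TPM with LEUTX (log2 difference −3.40, SE 0.089, adjusted p = 7.02e-09). The LIM-homeobox gene LHX5 fell from 15.5 ± 0.768 to 0.488 ± 0.124 TPM, a fall of 31.8-fold. FEZF1, a zinc-finger factor of the forebrain, was at 2.49, 2.24 and 2.77 TPM in wild type and listed at 0 with LEUTX. Genes that rose were the neural progenitor filament NES from 68.7 ± 4.00 to 254 ± 7.95 TPM, the Notch effector HES5 from 1.78 ± 0.562 to 7.46 ± 1.52 TPM, and from near 0 the posterior and midbrain homeobox genes GBX2 from 0.184 ± 0.0480 to 4.36 ± 0.715 TPM and LMX1A from 0.193 ± 0.0895 to 2.77 ± 0.256 TPM. The adhesion molecule NCAM1 was not called (3.26 ± 1.05 and 3.31 ± 0.106 TPM).

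Of 9 tested primordial germ cell genes (of 19), 7 rose, 1 (KLF4) fell and 1 (CXCR4) was not called, with a median of 0.62. The number that rose was 4 of 8 without LEUTX library 1 or 2 and 5 of 9 under median-ratio scaling, DPPA3 having passed the filter only through the LEUTX libraries. Without wild-type library 2 the median was 0.39. TFAP2C, an AP-2 factor of germ cells and trophoblast on chromosome 17 at 57164400 to 57174923, was at 17.2, 15.6 and 17.5 TPM in wild type and 100.1, 109 and 96.3 TPM with LEUTX (log2 difference 2.53, SE 0.066, adjusted p = 7.02e-09), without overlap. The receptor KIT rose from 52.4 ± 3.17 to 70.1 ± 2.75 TPM and the germ granule protein TDRD7 from 4.03 ± 0.139 to 6.72 ± 0.564 TPM. The RNA-binding protein DND1 rose from 29.6 ± 0.575 to 33.0 ± 0.904 TPM, a difference of 0.15 that was not called in 7 of 11 other settings. PRDM14, SOX15 and DPPA3, given above, are the other risers, while the defining germ cell genes PRDM1, SOX17, NANOS3, DDX4 and DAZL were not among the genes tested. Of 4 tested trophoblast genes (of 21) TFAP2C rose, and the keratins KRT8 and KRT18 and the factor TEAD4 fell from 1159 ± 28.8 to 779 ± 27.2 TPM, from 536 ± 19.1 to 374 ± 4.23 TPM and from 38.5 ± 5.15 to 17.4 ± 1.08 TPM, with a median of −0.54.

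Cleavage-stage and genome activation genes were mostly below the threshold for testing. Only 6 of 31 were tested, LEUTX among them, of which 5 rose and 1 fell, with a median of 1.04. These include the overexpressed gene itself, and without any single LEUTX library, when LEUTX leaves the test, 3 or 4 of 5 rose and the median was 0.54 to 0.78. The germline cyclin CCNA1 rose from 5.33 ± 0.441 to 15.8 ± 1.03 TPM and ZNF296 from 1.64 ± 0.589 to 3.18 ± 0.705 TPM, beside TFAP2C and SNAI1. The translation factor EIF1AX fell from 198 ± 1.79 to 184 ± 2.34 TPM, a call lost under 3 of 11 other settings. The other PRD-like genes of genome activation in the list (DUXA, ARGFX, DPRX, TPRX1 and TPRX2) and ZSCAN4 were not tested, having no 3 libraries at 1 TPM or no row in the table.

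In the FGF pathway the ETS factors rose, while the receptors FGFR1, FGFR3 and FGFR4 and the sprouty and DUSP feedback genes fell. Ligands went both ways. Of 33 tested members of 41, 11 rose, 16 fell and 6 were not called, with a median of −0.12. Of these 2 passed the filter only through wild type. Without any single wild-type library 31 were tested, 10 or 11 rose and 12 to 16 fell, with a median of −0.19 to −0.019. Among ligands FGF8 and FGF11 rose (from 1.91 ± 0.459 to 6.52 ± 0.666 TPM for FGF11), and FGF19, a hormone-like ligand, fell from 9.44 ± 1.69 to 1.36 ± 0.520 TPM. FGF2 was not called (13.3 ± 0.630 and 13.97 ± 0.799 TPM). FGFR1 was at 123, 107 and 133 TPM in wild type and 54.3, 56.7 and 50.5 TPM with LEUTX (log2 difference −1.15, SE 0.078, adjusted p = 1.78e-06), and FGFR4 fell from 10.0 ± 0.932 to 5.28 ± 0.719 TPM. FGFR2 was not called (78.3 ± 8.44 and 71.9 ± 3.44 TPM), but was called lower under median-ratio scaling (adjusted p = 0.00628) and without wild-type library 2 (0.0257). ETV4, an ETS factor induced by FGF signalling, was at 49.2, 39.8 and 59.4 TPM and then at 212, 223 and 186 TPM (log2 difference 2.06, SE 0.13, adjusted p = 3.23e-06). The related ETV1 rose from 27.6 ± 0.619 to 80.6 ± 1.93 TPM and ETV5 from 64.1 ± 7.92 to 97.4 ± 0.711 TPM. The ERK feedback genes DUSP6, SPRY4 and SPRY1 fell (from 7.30 ± 1.08 to 2.67 ± 0.250 TPM for SPRY4 and from 8.39 ± 0.0991 to 3.60 ± 0.130 TPM for SPRY1), as did the immediate-early genes FOS from 28.3 ± 4.09 to 12.7 ± 1.65 TPM and EGR1 from 25.8 ± 7.18 to 13.8 ± 1.11 TPM. SPRED1 (22.3 and 23.8 TPM) and SPRED2 (21.8 and 19.7 TPM) were not called.

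Of 21 tested BMP genes (of 32), 10 rose, 6 fell and 5 were not called, with a median of 0.15, close to the 0.11 over all genes. Under median-ratio scaling 8 rose and 6 fell, with a median of 0.044. ID2, a helix-loop-helix inhibitor, was at 3.00, 2.24 and 3.48 TPM in wild type and 34.0, 30.4 and 34.0 TPM with LEUTX (log2 difference 3.12, SE 0.12, adjusted p = 6.15e-08). The target MSX2 rose from 1.93 ± 0.464 to 10.3 ± 0.230 TPM, the ligand BMP6 from 2.53 ± 0.652 to 13.3 ± 1.27 TPM and the receptor BMPR2 from 10.6 ± 1.23 to 17.4 ± 0.402 TPM. ID3 fell from 93.3 ± 6.56 to 55.2 ± 4.04 TPM and the antagonist CHRD (chordin) from 3.86 ± 0.780 to 0.779 ± 0.228 TPM. ID1, the most abundant target, was not called (138 ± 2.27 and 140.0 ± 3.12 TPM), nor were SMAD1 (22.5 and 23.7 TPM) and TWSG1 (9.31 and 9.64 TPM). BMP targets therefore included a rise, a fall and a gene without a call within the ID family.

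Retinoic acid is made from retinol by dehydrogenases and destroyed by CYP26 enzymes. Of 15 tested members of 25, 9 rose, 4 fell and 2 were not called, with a median of 0.53. Beside the loss of CYP26A1 transcript, the binding protein CRABP2 was at 384, 339 and 372 TPM in wild type and 1153, 1183 and 1152 TPM with LEUTX (log2 difference 1.67, SE 0.045, adjusted p = 7.7e-09). The retinaldehyde reductase DHRS3 rose from 4.82 ± 0.117 to 26.6 ± 1.13 TPM, the retinol dehydrogenases RDH5 and RDH11 from 1.09 ± 0.316 to 7.96 ± 1.23 TPM and from 112 ± 4.95 to 239 ± 5.54 TPM, and LRAT, which stores retinol as esters, from 26.1 ± 1.27 to 53.7 ± 1.43 TPM. The receptor RARA fell from 6.996 ± 1.12 to 2.91 ± 0.122 TPM. CRABP1 (2.86 and 3.25 TPM) and RXRA (13.1 and 16.2 TPM) were not called, but RXRA was called higher after rescaling to nuclear genes (adjusted p = 0.0431) and without wild-type library 3 (0.00210). The ALDH1A enzymes, which make retinoic acid, were not tested.

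Of 18 tested insulin-like growth factor genes (of 25), 4 rose, 7 fell and 7 were not called, with a median of −0.085. The binding proteins diverged. IGFBP2 fell by far the most, IGFBP3 fell from 5.52 ± 0.788 to 1.78 ± 0.599 TPM, IGFBP5 rose from 3.38 ± 0.761 to 18.6 ± 3.22 TPM and IGFBP4 from 4.56 ± 0.829 to 8.997 ± 0.195 TPM. The receptor IGF1R stood at 20.4, 20.7 and 26.2 TPM in wild type and 10.8, 10.9 and 11.8 TPM with LEUTX (log2 difference −0.94, SE 0.10, adjusted p = 3.78e-05), and the adaptor IRS4 fell from 45.6 ± 3.96 to 26.6 ± 1.19 TPM. GRB10, an imprinted inhibitor of the receptor, rose from 24.8 ± 1.14 to 58.0 ± 4.73 TPM. Of the RNA-binding IGF2BP family, IGF2BP1 fell from 194 ± 15.2 to 132 ± 6.06 TPM. IGF2BP2 (56.3 and 52.9 TPM) and IGF2BP3 (50.3 and 48.1 TPM) were not called, but both were called lower under median-ratio scaling (adjusted p = 0.00511 and 0.0112). STC2 (11.8 and 10.2 TPM) and IRS1 (6.98 and 7.79 TPM) were not called.

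TEAD factors with the coactivators YAP1 and WWTR1 (TAZ) drive genes of cell contact and tension. Of 16 tested members of 21, 10 fell, 4 rose and 2 were not called, with a median of −0.53. The reporter genes of the pathway fell together. CTGF was at 32.8, 26.5 and 33.6 TPM in wild type and 1.57, 1.13 and 1.33 TPM with LEUTX (log2 difference −3.77, SE 0.12, adjusted p = 1.85e-08). CYR61 was at 27.1, 26.0 and 33.6 TPM and then at 2.43, 2.63 and 2.76 TPM (log2 difference −3.04, SE 0.11, adjusted p = 3.52e-08). AMOTL2 was at 48.8, 40.5 and 57.6 TPM and then at 6.11, 6.13 and 6.69 TPM (log2 difference −2.76, SE 0.12, adjusted p = 1.02e-07). For all 3 genes each LEUTX library was well below each wild-type library. The scaffold AJUBA fell from 31.9 ± 0.691 to 4.91 ± 0.676 TPM and the receptor kinase AXL from 9.01 ± 1.28 to 3.14 ± 0.324 TPM. YAP1 fell from 61.8 ± 1.67 to 43.6 ± 1.08 TPM, whereas WWTR1 rose from 6.38 ± 0.473 to 24.2 ± 1.35 TPM. TEAD2, the most abundant TEAD, was not called (228 ± 5.87 and 219 ± 5.00 TPM), except under median-ratio scaling (adjusted p = 0.00537, lower), and neither was AMOT (13.6 and 13.7 TPM).

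Mesenchymal transcripts fell beside these. Of 11 tested fibroblast and mesenchyme genes (of 21), 9 fell, 1 rose and 1 was not called, with a median of −1.40. Of these 4 passed the filter only through wild type and 1 only through LEUTX, and without any single wild-type library 5 of 7 fell, with a median of −1.48 to −1.21. VIM (vimentin) was at 85.4, 90.8 and 91.2 TPM in wild type and 27.5, 25.7 and 23.0 TPM with LEUTX (log2 difference −1.77, SE 0.068, adjusted p = 6.05e-08). TAGLN, an actin-binding protein, was at 56.0, 67.1 and 60.4 TPM and then at 8.86, 6.496 and 7.03 TPM (log2 difference −2.88, SE 0.11, adjusted p = 5.75e-08). The groups were apart for both. Smooth muscle actin (ACTA2) fell from 11.12 ± 0.882 to 3.18 ± 0.155 TPM, the collagen COL5A1 from 10.2 ± 3.07 to 3.14 ± 0.0582 TPM, the repressor ZEB2 from 3.23 ± 0.384 to 0.0944 ± 0.0647 TPM and the surface protein THY1 from 6.49 ± 1.15 to 3.11 ± 0.759 TPM. PDGFRB rose from 0.751 ± 0.154 to 2.0996 ± 0.233 TPM, and the collagen cross-linking enzyme LOX was not called (7.34 ± 0.786 and 8.69 ± 1.15 TPM). The fibroblast markers COL3A1, DCN and LUM were not tested.

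Epithelial junction and keratin genes went both ways. Of 30 tested members of 34, 16 fell, 11 rose and 3 were not called, with a median of −0.13. The epithelial cadherin CDH1 was at 264, 257 and 277 TPM in wild type and 335, 332 and 320.0 TPM with LEUTX (log2 difference 0.31, SE 0.037, adjusted p = 7.55e-05), while the placental cadherin CDH3 fell from 16.3 ± 1.38 to 6.05 ± 0.209 TPM. KRT19 was at 298, 291 and 303 TPM and then at 92.7, 88.0 and 97.9 TPM (log2 difference −1.67, SE 0.044, adjusted p = 7.19e-09). The desmosomal plaque protein PKP2 fell from 43.5 ± 1.60 to 18.9 ± 0.585 TPM, and the membrane-binding ANXA1 from 10.8, 12.1 and 8.42 TPM to 0, 0.0656 and 0 TPM. The epithelial splicing regulator ESRP2 rose from 25.4 ± 1.62 to 57.0 ± 2.80 TPM. EPCAM fell from 291 ± 6.84 to 273 ± 1.35 TPM, a difference of −0.089 whose call was lost in 6 of 11 other settings. CLDN4 (134 ± 31.7 and 131 ± 4.98 TPM), MARVELD2 (33.8 and 33.1 TPM) and GRHL2 (28.3 and 29.4 TPM) were not called, although CLDN4 was called lower without wild-type library 1 (adjusted p = 0.0268).

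Glycolysis transcripts were mostly lower. Of 31 tested glycolysis and pentose phosphate genes (of 31), 19 fell, 7 rose and 5 were not called, with a median of −0.30. LDHA, which makes lactate, was at 239, 258 and 249 TPM in wild type and 125, 129 and 129 TPM with LEUTX (log2 difference −0.96, SE 0.039, adjusted p = 7.77e-08). SLC16A3, the lactate exporter MCT4, was at 18.3, 17.0 and 22.6 TPM and then at 1.78, 2.02 and 1.66 TPM (log2 difference −2.84, SE 0.12, adjusted p = 9e-08). Both showed separated groups. The phosphofructokinase PFKP fell from 31.9 ± 3.77 to 10.9 ± 0.355 TPM, the mutase PGAM1 from 925 ± 13.6 to 479 ± 10.5 TPM, the isomerase TPI1 from 627 ± 16.4 to 355 ± 7.38 TPM and the enolase ENO2 from 15.8 ± 1.47 to 7.97 ± 0.886 TPM. PFKFB4, a regulator of phosphofructokinase, rose from 8.59 ± 1.03 to 16.2 ± 0.993 TPM. The glucose transporter SLC2A1 (98.0 ± 5.07 and 97.1 ± 1.78 TPM), TALDO1 (347 and 330.3 TPM) and ALDOC (48.8 and 46.3 TPM) were not called, and SLC2A1 was called lower under median-ratio scaling (adjusted p = 0.0355).

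Of 23 tested hypoxia-inducible genes (of 26), 6 rose, 8 fell and 9 were not called, with a median of −0.013 whose sign turned without 4 of the 6 libraries left out singly (−0.040 to 0.038 over all 6). MXI1, a MYC antagonist, rose from 5.87 ± 0.944 to 17.2 ± 0.361 TPM, DDIT4, an inhibitor of mTORC1, from 27.6 ± 0.841 to 54.8 ± 7.11 TPM, the carbonic anhydrase CA9 from 9.65 ± 0.722 to 15.2 ± 1.56 TPM and the mitophagy receptor BNIP3L from 69.0 ± 2.09 to 105 ± 1.68 TPM. PDK1, which turns pyruvate away from mitochondria, fell from 73.2 ± 2.38 to 31.9 ± 0.552 TPM and the hexokinase HK2 from 35.6 ± 1.88 to 23.7 ± 2.02 TPM. VEGFA, the angiogenic factor, was not called (13.0 ± 1.27 and 12.8 ± 1.85 TPM), nor were KDM3A (24.5 and 27.6 TPM), P4HA1 (13.3 and 14.04 TPM) and EGLN3 (186 and 180.3 TPM), with EGLN3 called lower under median-ratio scaling (adjusted p = 0.0174).

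More nuclear-encoded respiratory transcripts rose than fell, and mitochondrially encoded ones went both ways, none past 2-fold. Of 26 tested nuclear-encoded oxidative phosphorylation genes (of 42), 15 rose, 8 fell and 3 were not called, with a median of 0.23 and none past 2-fold. The complex I subunits NDUFA6, NDUFA1 and NDUFB5 rose from 100.3 ± 3.52 to 195 ± 10.4 TPM, from 61.6 ± 1.58 to 94.0 ± 2.71 TPM and from 88.8 ± 6.97 to 131 ± 0.696 TPM. The complex IV subunits NDUFA4, COX6C and COX5B rose from 465 ± 13.9 to 708 ± 15.8 TPM, from 379 ± 10.2 to 582 ± 37.8 TPM and from 649.6 ± 37.8 to 951 ± 43.4 TPM, and NDUFA4 has 2 loci under its symbol. UQCRB (239 and 233 TPM), SDHA (209.8 and 205 TPM) and NDUFB10 (189 and 193 TPM) were not called. Of the 13 mitochondrially encoded transcripts 6 rose, 4 fell and 3 were not called, with a median of 0.039 that turned to −0.071 under median-ratio scaling (2 higher, 5 lower) and to −0.011 without wild-type library 3. COX2 and CYTB increased from 19317 ± 518 to 24051 ± 395 TPM and from 5569 ± 136 to 6699.9 ± 50.9 TPM, and ND3 from 2674 ± 139 to 2982 ± 76.5 TPM, the last not called under median-ratio scaling (adjusted p = 0.491). ND2, ND4 and ND1 fell from 6528 ± 285 to 5448 ± 108 TPM, from 6378 ± 465 to 5526 ± 50.1 TPM and from 4176 ± 175 to 3814 ± 69.0 TPM, and ND4L, ND5 and ND6 were not called.

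Of 57 cytosolic ribosomal protein genes, all tested, 27 fell, 15 rose and 15 were not called, with a median of −0.068 and none past 2-fold. Under median-ratio scaling 34 fell and 9 rose, with a median of −0.18. RPS2 and RPSA fell from 819.9 ± 39.8 to 414 ± 17.9 TPM and from 3449 ± 103 to 2328 ± 46.2 TPM, and RPL22 from 1297 ± 44.0 to 884 ± 20.5 TPM. RPL13A and RPS15 increased from 1566 ± 21.5 to 2383 ± 48.9 TPM and from 2365 ± 83.7 to 3349 ± 95.1 TPM. RPL3, RPS7 and RPL35 were not called. Ribosomal protein genes have many processed copies in mammalian genomes, and reads may be shared with them.

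Of 24 tested cholesterol synthesis and uptake genes (of 27), 10 rose, 9 fell and 5 were not called, with a median of 0.047 that turned to −0.063 under median-ratio scaling (9 higher, 11 lower). Enzymes of the pathway did not move in a single direction. HMGCS1, a synthase of the early steps, fell from 724 ± 25.9 to 476 ± 4.89 TPM. The sterol reductase TM7SF2 rose from 16.1 ± 1.11 to 74.8 ± 6.46 TPM, the kinases PMVK and MVK from 22.5 ± 2.66 to 41.4 ± 1.23 TPM and from 37.8 ± 2.40 to 60.3 ± 1.60 TPM, and the oxidase MSMO1 from 196 ± 12.3 to 303 ± 12.3 TPM. HSD17B7, which acts in the same late steps, fell from 66.9 ± 3.19 to 42.2 ± 2.04 TPM. ACAT2, FDFT1, CYP51 and NSDHL were not called.

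Cyclins and their inhibitors changed in both directions. Of 27 tested cell cycle genes (of 31), 11 rose, 13 fell and 3 were not called, with a median of −0.17. Under median-ratio scaling 7 rose and 14 fell, with a median of −0.28. CDKN1B (p27) was at 11.7, 11.97 and 15.3 TPM in wild type and 48.5, 44.0 and 44.6 TPM with LEUTX (log2 difference 1.75, SE 0.10, adjusted p = 6.37e-07). CDKN1A (p21) was at 12.7, 11.06 and 12.5 TPM and then at 31.0, 32.1 and 30.4 TPM (log2 difference 1.30, SE 0.074, adjusted p = 6.3e-07). Both inhibitors were higher in every LEUTX library, and CDKN2D rose from 4.45 ± 0.796 to 12.8 ± 0.742 TPM. The D cyclins CCND1 and CCND3 rose (from 19.1 ± 4.02 to 42.0 ± 5.38 TPM for CCND3), whereas the E cyclins CCNE2 and CCNE1 fell from 5.97 ± 0.656 to 1.39 ± 0.394 TPM and from 28.9 ± 3.51 to 16.0 ± 1.61 TPM. The mitotic kinase AURKB was at 65.1, 57.1 and 37.1 TPM with LEUTX against 25.8, 23.7 and 24.7 TPM in wild type (log2 difference 1.03, SE 0.18, adjusted p = 0.000975), with a wide spread between LEUTX libraries. The proliferation marker MKI67 (87.0 ± 14.5 and 84.3 ± 4.03 TPM), CCNB2 (76.3 and 75.9 TPM) and CDKN1C (15.3 and 12.7 TPM) were not called.

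Of 24 tested p53 target genes (of 26), 15 rose, 5 fell and 4 were not called, with a median of 0.40. Beside CDKN1A, the ribonucleotide reductase subunit RRM2B was at 12.5, 11.2 and 12.04 TPM in wild type and 36.6, 36.0 and 34.6 TPM with LEUTX (log2 difference 1.51, SE 0.068, adjusted p = 1.51e-07). The excision repair genes DDB2 and XPC increased from 12.3 ± 1.05 to 29.7 ± 0.796 TPM and from 22.9 ± 1.77 to 48.2 ± 1.96 TPM, and the death receptor FAS from 2.7002 ± 0.0170 to 7.55 ± 0.800 TPM. PHLDA3, an inhibitor of AKT, fell from 49.4 ± 1.54 to 24.5 ± 0.282 TPM. MDM2, the ubiquitin ligase that p53 induces and that degrades it, is among the 5 that fell (from 29.3 ± 1.40 to 24.3 ± 1.04 TPM). AEN, TIGAR, PLK3 and GADD45A were not called.

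Of 26 tested genes of the integrated stress and unfolded protein responses (of 28), 8 rose, 11 fell and 7 were not called, with a median of −0.016 whose sign turned without 4 of the 6 libraries left out singly (−0.015 to 0.034 over all 6). The serine synthesis enzyme PHGDH rose from 69.9 ± 4.13 to 143 ± 3.05 TPM, the chaperone cofactor SDF2L1 from 16.0 ± 0.689 to 35.6 ± 1.39 TPM, SESN2 from 10.6 ± 0.916 to 21.0 ± 4.34 TPM and the phosphatase subunit PPP1R15A from 11.2 ± 1.84 to 21.2 ± 1.58 TPM. MTHFD2, a mitochondrial folate enzyme, fell from 18.7 ± 1.09 to 8.16 ± 0.684 TPM and the lipoprotein receptor VLDLR from 8.13 ± 0.950 to 4.46 ± 0.317 TPM. ATF4, the central factor, was not called (461 ± 32.2 and 442 ± 7.08 TPM), nor were XBP1, PDIA4 and PDIA6.

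Of 14 tested interferon response genes (of 26), 7 rose, 4 fell and 3 were not called, with a median of 0.33. STAT2, a transducer of interferon receptors, was at 8.94, 8.34 and 8.00 TPM in wild type and 18.8, 16.7 and 16.9 TPM with LEUTX (log2 difference 0.97, SE 0.082, adjusted p = 7.18e-06), without overlap, and its partner IRF9 rose from 3.79 ± 0.711 to 7.26 ± 1.04 TPM. Genes of class I antigen presentation rose with them, B2M from 33.6 ± 1.34 to 82.1 ± 1.14 TPM and SLA-1 from 7.78 ± 0.569 to 22.1 ± 3.13 TPM. B2M has 2 loci under its symbol, and SLA-1 has close paralogs that could share its reads. The ubiquitin-like effector ISG15 rose from 3.63 ± 0.620 to 7.22 ± 1.42 TPM. OAS2 (7.84 and 8.36 TPM), IRF1 (7.43 and 6.41 TPM) and IRF7 (3.11 and 4.09 TPM) were not called.

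**Figure D4:**
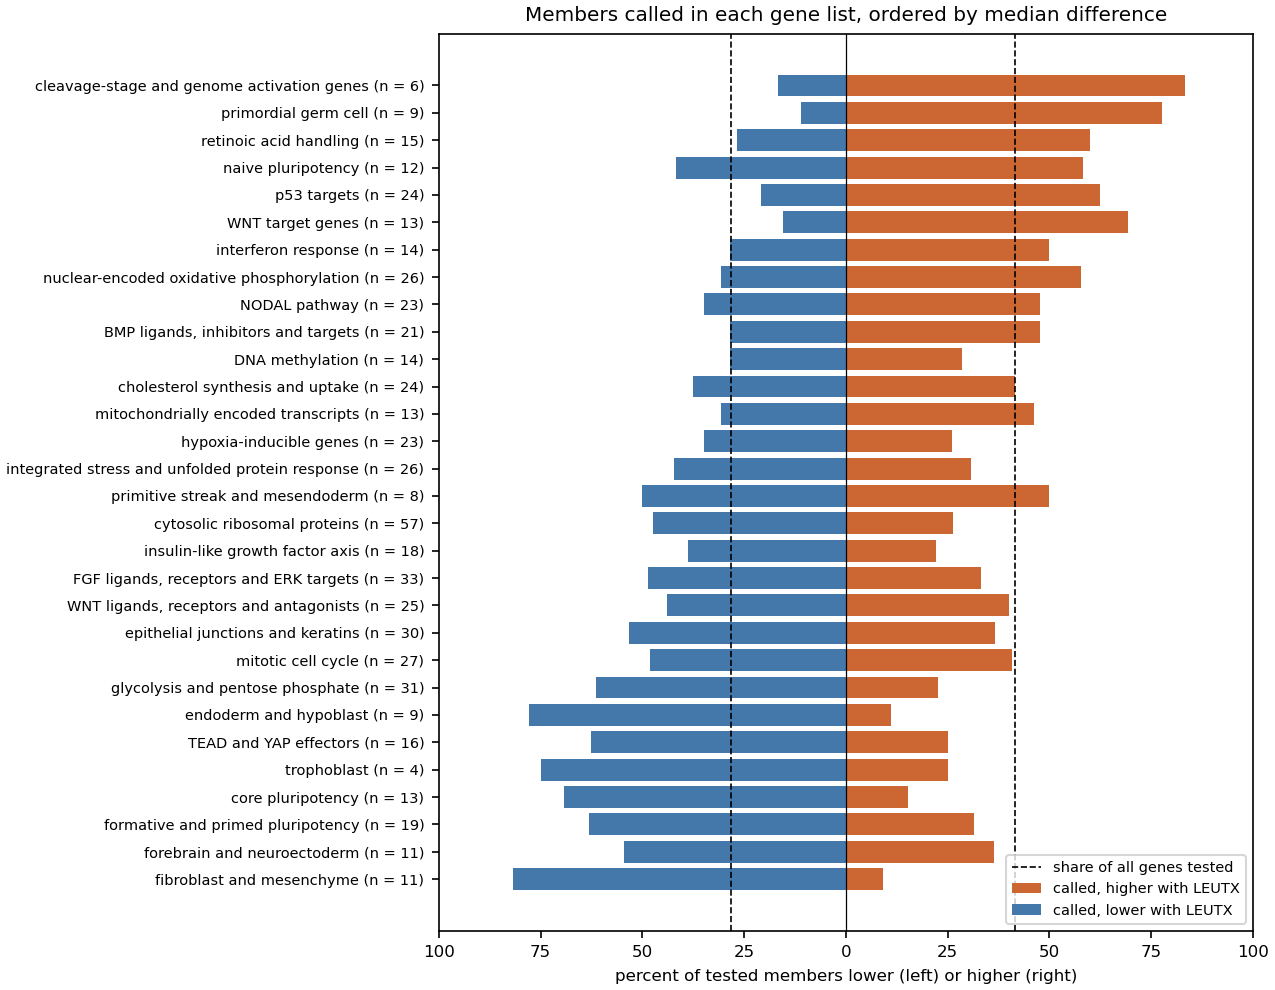
Percent of the tested members of each of 30 gene lists that were called lower (bars to the left) or higher (bars to the right) with LEUTX, ordered by the list's median difference, with dashed lines at the shares over all 12570 genes (28.1% and 41.6%). Fibroblast and mesenchyme genes lie at the bottom, with 9 of 11 lower, and the cleavage-stage list at the top has only 6 members.

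The libraries of the OTX2 lines give direct contrasts for a line in which OTX2 transcript had almost gone. Each was set against the LEUTX libraries without wild type in the test, on genes present in both tables. OTX2 stood at 99.5, 130.1 and 114 TPM in the libraries labelled OTX2 knockout, and at 9758, 8974 and 10819 TPM with OTX2 overexpression. The knockout libraries thus kept OTX2 transcript, below the mean of 257 TPM in wild type and far above the LEUTX libraries. No label says which part of the gene was removed, so the transcript level does not check the loss of protein. LEUTX had no row in either OTX2 table.

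Against the knockout, 6291 of 11973 genes were called (52.5%), 4146 higher (34.6%) and 2145 lower (17.9%) with LEUTX. Median-ratio scaling gave 3609 higher and 3577 lower. Knockout library 1 stood apart, with 22.4% of TPM from mitochondrial transcripts against 10.2% and 10.3% in the other two, and without it 9093 genes were called. Where a contrast with the knockout is printed, it is therefore given with and without library 1, except where a gene then had fewer than 3 libraries at 1 TPM. For some genes only the knockout levels are given. Against OTX2 overexpression, in which mitochondrial transcripts took 9.02% to 10.1%, 10015 of 12342 genes were called (81.1%), 4969 higher (40.3%) and 5046 lower (40.9%). Differences below are LEUTX minus the OTX2 line.

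CYP26A1, CER1 and FOXA2, near 0 with LEUTX, kept transcript in the OTX2 lines. Not every gene near 0 with LEUTX was set against these lines. CYP26A1 was at 2.26, 3.07 and 3.50 TPM in the libraries of the knockout and at 77.9, 74.0 and 55.5 TPM with OTX2 overexpression. The knockout thus lay between LEUTX and wild type (log2 difference −1.95, SE 0.15, adjusted p = 0.000109), and OTX2 overexpression overlapped wild type. CER1 was at 2.58, 3.60 and 7.23 TPM in the knockout (log2 difference −2.25, SE 0.30, adjusted p = 0.000995). With OTX2 overexpression it was at 1.95, 2.08 and 2.81 TPM (log2 difference −1.59, SE 0.15, adjusted p = 3.8e-07), so it was lower with LEUTX than in either line. FOXA2 was at 19.3, 26.4 and 38.7 TPM in the knockout and 24.8, 30.5 and 28.1 TPM with OTX2 overexpression, against zeros in the 3 LEUTX libraries. These 3 genes were below 1 TPM in every LEUTX library and passed the filter only through the OTX2 line. The p-values of CYP26A1 and CER1 are therefore no support beyond the levels. None of the 3 could be tested without knockout library 1.

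IGFBP2 was at 192, 235 and 257 TPM in the knockout (log2 difference −5.50, SE 0.14, adjusted p = 1.79e-06) and, without library 1, the contrast was similar (log2 difference −5.61, adjusted p = 5.12e-11). It was at 565, 601 and 534 TPM with OTX2 overexpression, above wild type in every library and far above LEUTX (log2 difference −6.81, SE 0.064, adjusted p = 5.53e-16). FZD7 stood at 25.3, 43.8 and 44.9 TPM in the knockout (log2 difference −3.51, SE 0.23, adjusted p = 6.81e-05), and without library 1 at a wider distance (log2 difference −3.77, adjusted p = 1.49e-09). With OTX2 overexpression FZD7 was at 49.2, 51.8 and 45.2 TPM (log2 difference −3.91, SE 0.086, adjusted p = 7.37e-13), so both lines lay between LEUTX and wild type. HESX1 was at 38.6, 29.3 and 25.9 TPM in the knockout and at 18.7, 17.7 and 17.3 TPM with OTX2 overexpression, below wild type in both and lowest with LEUTX. The HESX1 contrast with the knockout was the same in direction with library 1 (log2 difference −2.40, SE 0.18, adjusted p = 0.000105) and without it (log2 difference −2.24, adjusted p = 8.7e-08).

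WNT8A was at 1.22, 1.77 and 1.46 TPM in the knockout and at 1.04, 1.01 and 0.533 TPM with OTX2 overexpression, so the LEUTX libraries exceeded all others. The contrast with the knockout was much the same with library 1 (log2 difference 6.73, SE 0.13, adjusted p = 1.01e-06) and without it (log2 difference 6.65, adjusted p = 2.1e-11). LEFTY2 was at 252, 356 and 466 TPM in the knockout and 712, 795 and 535 TPM with OTX2 overexpression, several fold below LEUTX in each library. Against the knockout the difference held with library 1 (log2 difference 3.57, SE 0.20, adjusted p = 3.93e-05) and without it (log2 difference 3.34, adjusted p = 1.19e-06). NODAL was at 39.6, 50.5 and 42.3 TPM in the knockout and 21.1, 19.2 and 17.0 TPM with OTX2 overexpression, and the LEUTX libraries were above both. Against the knockout the NODAL difference was smaller than that of LEFTY2, with library 1 (log2 difference 0.71, SE 0.12, adjusted p = 0.00233) and without it (log2 difference 0.64, adjusted p = 2.83e-05).

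TFAP2C was at 41.9, 57.2 and 55.1 TPM in the knockout, between wild type and LEUTX (log2 difference 0.98, SE 0.14, adjusted p = 0.00133), also without library 1 (log2 difference 0.85, adjusted p = 1.12e-06). With OTX2 overexpression it was at 16.0, 19.2 and 15.6 TPM, overlapping wild type. GDF3, listed at 0 with LEUTX, was at 11.5, 10.0 and 7.26 TPM in the knockout, above wild type.

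DNMT3B separated the OTX2 lines. It was at 1315, 2704 and 2469 TPM in the knockout, far above LEUTX with library 1 (log2 difference −2.50, SE 0.26, adjusted p = 0.000382) and without it (log2 difference −2.82, adjusted p = 9.76e-10). With OTX2 overexpression it was at 303, 311 and 241 TPM, slightly below LEUTX (log2 difference 0.36, SE 0.10, adjusted p = 0.0121). NANOG was at 172, 257 and 265 TPM in the knockout, each above every LEUTX library. With OTX2 overexpression it was at 31.6, 34.2 and 31.7 TPM, so the LEUTX libraries lay far above the overexpressing line (log2 difference 2.20, SE 0.055, adjusted p = 1.97e-12). SOX2 stood at 177, 382 and 382 TPM in the knockout and was not called against LEUTX (log2 difference −0.17, SE 0.29, adjusted p = 0.655), but without library 1 it was called lower with LEUTX (log2 difference −0.54, adjusted p = 3.98e-06). With OTX2 overexpression SOX2 was at 114, 112 and 97.7 TPM, the lowest of the 4 groups. LIN28A was at 211, 1156 and 1091 TPM in the knockout and not called (log2 difference −0.36, SE 0.62, adjusted p = 0.653). Its library 1 lay far below the other two, and without it LEUTX was lower (log2 difference −1.16, adjusted p = 6.81e-09).

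KRT18 and ANXA1 were far higher in the knockout than in any other group. KRT18 was at 2427, 2545 and 2868 TPM there (log2 difference −2.80, SE 0.075, adjusted p = 2.28e-06), with a similar contrast without library 1 (log2 difference −2.85, adjusted p = 1.24e-10), and at 597, 604 and 544 TPM with OTX2 overexpression. ANXA1 was at 696, 538 and 888 TPM in the knockout and 9.05, 10.9 and 14.1 TPM with OTX2 overexpression, while LEUTX libraries 1 and 3 were listed at 0. CTGF was at 20.7, 46.5 and 45.2 TPM in the knockout (log2 difference −3.96, SE 0.31, adjusted p = 0.000123), and without library 1 the contrast was larger (log2 difference −4.33, adjusted p = 1.59e-09). With OTX2 overexpression CTGF was at 13.0, 12.9 and 13.2 TPM, still above LEUTX (log2 difference −2.59, SE 0.10, adjusted p = 1.46e-10). The ETS gene ETV4 stood at 67.4, 99.2 and 106 TPM in the knockout and 125, 113 and 135 TPM with OTX2 overexpression, above wild type in both lines and below LEUTX (log2 difference 0.73, SE 0.075, adjusted p = 2.29e-06) in the second.

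Several genes that were high with LEUTX were also high with OTX2 overexpression. RESP18 was at 121, 113 and 143 TPM with OTX2 overexpression, higher than with LEUTX (log2 difference −0.67, SE 0.076, adjusted p = 4.91e-06), and at 1.99, 2.23 and 2.20 TPM in the knockout. FXYD3 was at 143, 131 and 121 TPM with OTX2 overexpression, also higher than with LEUTX (log2 difference −0.95, SE 0.063, adjusted p = 1.65e-08), and at 2.28, 1.69 and 2.94 TPM in the knockout. CRABP2 was at 1101, 1044 and 1071 TPM with OTX2 overexpression, slightly lower than with LEUTX (log2 difference 0.12, SE 0.031, adjusted p = 0.00371), and at 293, 349.8 and 299 TPM in the knockout. AXIN2 and IGFBP5 did not pass the test between these lines. AXIN2 was at 32.3, 35.9 and 33.5 TPM with OTX2 overexpression (log2 difference 0.070, SE 0.078, adjusted p = 0.422), and IGFBP5 at 19.7, 23.0 and 18.2 TPM (log2 difference −0.13, SE 0.12, adjusted p = 0.334). The LEUTX and OTX2 lines share the wild-type libraries as controls, so no overlap of calls against wild type is given.

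**Figure D5:**
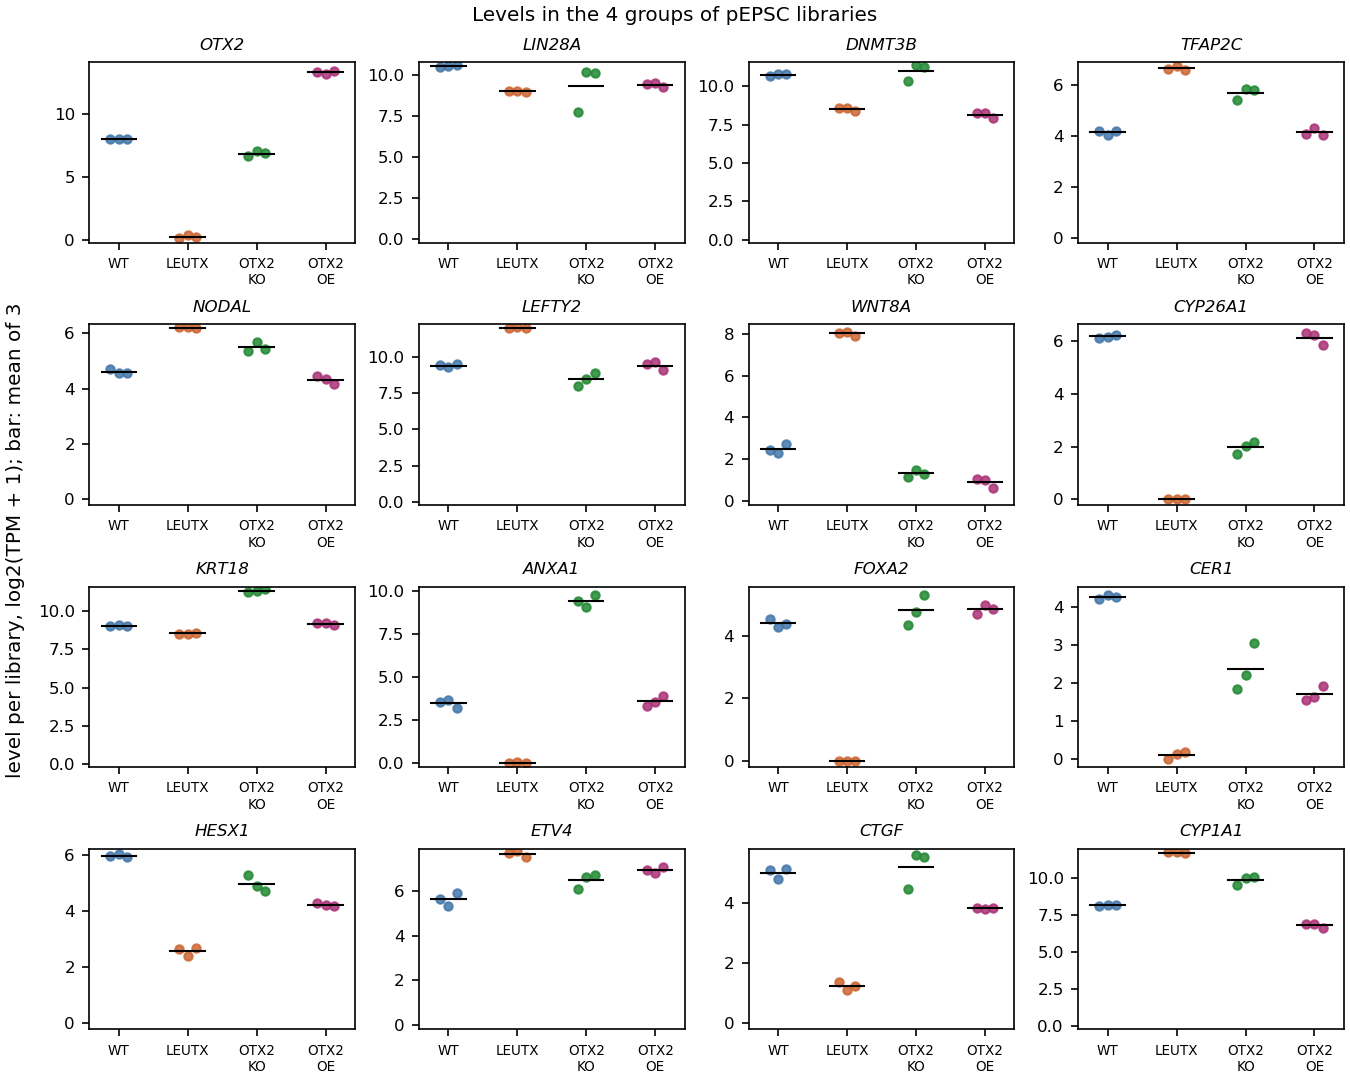
Level of 16 genes (vertical axis, log2(TPM + 1)) in each library of 4 groups of 3, wild type, LEUTX overexpression, OTX2 knockout (KO) and OTX2 overexpression (OE), with a bar at the mean. OTX2, CYP26A1, FOXA2 and CER1 are lowest with LEUTX, WNT8A and LEFTY2 highest, and KRT18 and ANXA1 highest in the knockout.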

How the data were processed

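Total RNA was extracted with TRIzol and sequenced in bulk, per the labels' protocols. The authors deposited a table of TPM values for each engineered line beside the same 3 wild-type libraries, whose values were identical in the 3 tables. Columns summed to between 997364 and 997570 TPM and the lowest gene mean was 1.00 TPM. TPM keeps no read depth, so the counting error of each library is unknown. The submitters' processing notes name STAR 2.7.3, featureCounts 2.0.0, StringTie 2.1.4, DESeq2, Trim Galore 0.6.6 and the build Sscrofa11.1, with no role. The authors' fold changes, p-values and calls were not used. Of the gene names 12564 matched RefSeq symbols of Sscrofa11.1, which gave the coordinates.

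Genes at 1 TPM or more in at least 3 of the libraries compared were tested on log2(TPM + 1) with limma 3.58.1 (trend, robust, statmod 1.5.0, R 4.3.3), after a check on simulated data, with Benjamini-Hochberg adjustment over all genes and a threshold of 0.05. Exact permutation tests used scipy 1.17.1. Alternatives were rescaling to nuclear genes, median-ratio scaling, no filter, a pseudocount of 0.1, the replicate number as a block and each library left out. The gene lists and members were chosen with earlier results of these data known. Named genes were the 14 highest and 14 lowest differences, up to 6 called genes per list at 5 TPM or more with the largest differences, up to 4 genes without a call by level, and every member of the core pluripotency, NODAL, DNA methylation and primitive streak lists, of which some are not reported here. Outside that rule, AURKB, CCNE1, CDH1, CHRD, DKK3, DPPA3, DPPA5, DUSP6, EGR1, EPCAM, ESRRB, ETV5, FEZF1, FGF4, FGFR1, FGFR4, FOS, FRZB, FZD10, FZD2, FZD4, FZD6, FZD8, GBX2, HHEX, HMGCS1, IGF2BP1, IL6ST, IRS4, KLF4, LGR4, LMX1A, LRAT, LRP5, MDM2, MYC, PDGFRB, PORCN, POU3F1, RSPO1, SFRP2, SFRP5, SOX11, SPRY1, TPI1, VEGFA, WNT5B, WNT9A, YAP1, ZEB2, ZIC2, ZIC5 and ZNF296 were named after their values were seen.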

Additional observations from a re-analysis of the deposited data

How the results depend on the processing

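The count of called genes against wild type was 8761 and stayed within 1.5 times of that under each alternative. It was 8820 after rescaling to nuclear genes, 8962 under median-ratio scaling, 8765 without a filter, 8727 with a pseudocount of 0.1, and 7643 to 8731 when each library was left out. Against the OTX2 knockout the count of 6291 ran from 4365 to 9093 over the libraries left out, the latter without knockout library 1, and against OTX2 overexpression from 9555 to 9848. Of 317 genes examined one by one, 276 kept their call and direction under the 11 alternatives that could test them, 10 lost a call and 30 gained one. Under median-ratio scaling 21 genes without a call were called lower and none higher (ALDOC, ATF4, MBD3, SDHA and UQCRB among them). POU5F1, counted apart from the 10, changed sign to −0.0036 there and was no longer called. The cause of the other changes was not tested. No label says what a replicate number marks, so whether it pairs the samples is not known. Deviations of libraries with the same number correlated at 0.044, −0.11 and −0.18, and libraries 2 and 3 correlated best with another number. Deviations from the mean of so few libraries are tied to each other, so these values cannot settle pairing. With the replicate number as a block, 8163 genes were called against wild type (4910 higher, 3253 lower) and 10202 against OTX2 overexpression, and TET2, EIF1AX, DND1 and EPCAM lost their calls (log2 differences 0.32, −0.10, 0.15 and −0.089). No paired analysis was possible for the OTX2 knockout because its column numbers are not those of the sample titles. TPM values carry no depth, so small differences of genes at a few TPM cannot be weighed against counting error.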

Other observations

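At 1 TPM, 321 genes were at or above the threshold in the 3 LEUTX libraries and in no wild-type library, and 170 in the 3 wild-type libraries and in no LEUTX library. Several of the strongest changes lay outside the gene lists, and the genes that follow were chosen after their values were seen. CYP1A1, a xenobiotic-metabolising P450, was at 272, 285 and 283 TPM in wild type and 3341, 3335 and 3277 TPM with LEUTX, an 11.9-fold difference (log2 difference 3.56, SE 0.029, adjusted p = 4.14e-12). The aryl hydrocarbon receptor AHR, known for inducing it, rose from 4.08 ± 0.231 to 6.93 ± 0.251 TPM, and the receptor's repressor AHRR from 18.2 ± 3.29 to 27.5 ± 2.54 TPM. Other genes known as AHR targets went the other way, TIPARP from 29.7 ± 0.697 to 25.2 ± 0.769 TPM and NQO1 from 69.2 ± 3.08 to 31.1 ± 2.59 TPM, while UGT1A6, given above, rose.

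Imprinted genes also went both ways. PEG10, a retrotransposon-derived gene on chromosome 9 at 74474121 to 74486983, rose from 6.83 ± 0.733 to 40.7 ± 1.81 TPM. Its neighbour SGCE, on chromosome 9 at 74402714 to 74473904, rose from 1.65 ± 0.206 to 17.8 ± 1.18 TPM. SNRPN fell from 354 ± 11.8 to 132 ± 18.7 TPM, as did NNAT, given above, and GRB10 rose. RPL22L1, the paralog of ribosomal protein RPL22, was at 68.9, 64.4 and 70.3 TPM in wild type and 615, 588 and 627 TPM with LEUTX (log2 difference 3.15, SE 0.043, adjusted p = 1.38e-10), while RPL22 was lower.

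The uncharacterised LOC100524517, on chromosome 10 at 13815157 to 13819249, rose from 451 ± 17.2 to 3413 ± 50.5 TPM. It lies close to LEFTY2, at 13849052 to 13853438, which rose as well. Whether it is a LEFTY copy or shares reads with LEFTY2 was not tested, so its rise may not be a separate change. LOC100625479, on chromosome 3 at 102195743 to 102205687, was at 3.84, 3.51 and 3.65 TPM in wild type and 594, 603 and 588 TPM with LEUTX (log2 difference 6.997, SE 0.048, adjusted p = 1.6e-12). Over 19 chromosomes the median difference ran from −0.03 to 0.14.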
